A study of Mus musculus with 50 samples.

Results

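The comparison described here set the high dose of a manganese-containing antioxidant against the low dose in mice without Sod2, using 20 of the 50 arrays of the series. Every array labelled as a treated Sod2 knockout was taken, 10 from mice given 30 mg/kg (high-dose knockouts) and 10 from mice given 1 mg/kg (low-dose knockouts). The remaining 30 arrays were 10 high-dose wild types (30 mg/kg), 11 low-dose wild types (1 mg/kg) and 9 untreated wild types, and they served to show whether a dose difference also appeared without the knockout. Each array measured RNA of synaptosomes (pinched-off nerve endings, which carry mitochondria and the local RNA of synapses) from the frontal cortex of 1 mouse aged 17 to 21 days on a CD1 background. The knockout was constitutive, so it was not limited to 1 cell type. The compound is named EUK8 in the titles and EUK189 in the treatment field, and which of these salen manganese complexes was given cannot be told from the labels. Untreated knockouts were not among the groups, so the values below are differences between 2 doses and not effects of the compound against none.

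Sod2 is the superoxide dismutase of the mitochondrial matrix, which turns superoxide into hydrogen peroxide. Superoxide damages iron-sulfur enzymes of the respiratory chain and of the citric acid cycle, and mice without Sod2 die young. Salen manganese compounds imitate superoxide dismutase and catalase. Among the gene programmes known to answer oxidative and mitochondrial stress are the detoxifying and glutathione genes driven by the transcription factor Nrf2 and the amino acid genes driven by ATF4.

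The largest fall at the high dose was that of Hmox1, which breaks down heme. Further large falls were those of the growth factor binding protein Igfbp2, the epoxide hydrolase Ephx1 and the cysteine dioxygenase Cdo1. Lists of Nrf2 targets, glutathione enzymes, tRNA synthetases and citric acid cycle enzymes held falls and no rises. The rises included the growth factor binding protein Igfbp5, the myelin gene Opalin and genes of sodium, potassium and calcium channels, of synaptic vesicles, of the postsynaptic density and of interneurons. The same dose step in wild types gave 0 called genes. In a test of the difference between the dose steps of knockouts and wild types, 8.93% of the rising and 19.7% of the falling probes were called. Of all tested probes 2.96% were called in that test. It contains the knockout dose difference by which the rising and falling probes were chosen, so part of the overlap is built in. Its calls numbered 398, and 72 with array position as a further factor. With position on the chip as a further factor 9 of the 15 largest rises no longer passed, while all 15 of the largest falls still passed.

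The levels were log2 signals of Illumina bead arrays after background correction and quantile normalization, and a change is the fitted high-dose minus low-dose difference in log2 units with its standard error (SE). It came from a linear model in limma with the 5 groups and the 7 chips, fitted to 13462 probes of 10091 genes that were above background on at least 9 arrays. A probe was called at a Benjamini-Hochberg adjusted p under 0.05 over all tested probes. The number of probes above background was 11310 ± 681 (SD, n = 10) on high-dose and 11070 ± 377 (n = 10) on low-dose knockout arrays (p = 0.338, two-sided permutation test with 100000 resamples). Low-dose knockout replicate 30 stood apart, with a median correlation of 0.947 to the other knockout arrays, against 0.960 to 0.973 for the other 19. Positions on the chip, taken from the letter after the chip number in the labels, were not shared evenly. Position G held 5 high-dose and 0 low-dose knockout arrays, and 3 of 8 positions held both doses. The Sod2 probe is no check of the knockout here, since the deleted part of the gene is not given in the labels. Its lowest, median and highest log2 levels were 9.66, 10.08 and 10.48 in high-dose and 9.63, 10.17 and 10.62 in low-dose knockouts, a change of −0.13 ± 0.0937 (limma adjusted p = 0.381).

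Promoters are shown for 4 genes that fell and that hold a match to the binding motif of Nrf2 or ATF4, as examples of the sequences on which these factors are known to act. They are the 250 bases before the start from RefSeq (GRCm38.p6), 5′ to 3′ on the strand of the gene. The capitals mark the match, searched on both strands, to TGACNNNGC (the antioxidant response element bound by Nrf2) in Gclm, G6pdx and Mgst1 and to TGATGNAA (the CEBP-ATF core) in Vldlr. Gclm lies at chr3:122245307-122245556 (plus strand), G6pdx at chrX:74428881-74429130 (minus strand), Mgst1 at chr6:138140277-138140526 (plus strand) and Vldlr at chr19:27216770-27217019 (plus strand).
Gclm: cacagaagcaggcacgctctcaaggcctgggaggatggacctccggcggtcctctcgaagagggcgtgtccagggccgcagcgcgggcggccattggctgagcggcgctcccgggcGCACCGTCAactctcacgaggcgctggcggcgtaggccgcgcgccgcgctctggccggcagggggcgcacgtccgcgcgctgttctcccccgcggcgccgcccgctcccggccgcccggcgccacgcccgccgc
G6pdx: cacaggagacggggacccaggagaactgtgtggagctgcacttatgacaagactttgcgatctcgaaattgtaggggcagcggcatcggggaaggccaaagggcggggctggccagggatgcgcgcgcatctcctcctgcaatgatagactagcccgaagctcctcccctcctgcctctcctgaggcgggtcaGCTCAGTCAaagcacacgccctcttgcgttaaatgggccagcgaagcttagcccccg
Mgst1: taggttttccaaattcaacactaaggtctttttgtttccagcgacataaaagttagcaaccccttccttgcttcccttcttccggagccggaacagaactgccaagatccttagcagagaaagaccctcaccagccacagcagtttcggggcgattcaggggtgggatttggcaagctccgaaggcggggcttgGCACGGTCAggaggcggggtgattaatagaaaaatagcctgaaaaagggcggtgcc
Vldlr: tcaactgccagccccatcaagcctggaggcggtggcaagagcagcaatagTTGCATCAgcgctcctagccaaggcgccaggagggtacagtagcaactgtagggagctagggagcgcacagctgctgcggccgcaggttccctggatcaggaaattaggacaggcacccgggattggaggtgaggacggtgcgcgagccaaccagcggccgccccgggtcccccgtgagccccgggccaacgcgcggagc
The match began 134 bases before the start in Gclm, 57 in G6pdx, 56 in Mgst1 and 200 in Vldlr. The antioxidant element was found in 14% of the 7792 tested genes with a promoter sequence and the CEBP-ATF core in 2.55%. The examples with the antioxidant element do not set the falling genes apart. That element was found in 13.3% of the 839 falling and 16% of the 801 rising genes with a sequence. Among the rising ones were Pdzph1, Opalin, Hsph1 and Kalrn. The CEBP-ATF core was found in 3.69% of the falling genes (31) and 2.25% of the rising genes (18). Only 77.2% of the tested genes had a promoter sequence, and these shares were not tested. A match describes the letters and does not show binding.

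Across the array 2683 probes were called for the dose in knockouts (19.9% of those tested), 1254 rising (9.32%) and 1429 falling (10.6%). They covered 2289 genes. Most changes were small, with a median of 0.39 among rises and −0.36 among falls. More than 2-fold rises numbered 18 and more than 2-fold falls 32. All 10 high-dose knockouts lay above all 10 low-dose knockouts in 19 probes (0.141%) and below them in 62 (0.461%). Within the 6 chips that held both doses, 732 rising (58.4%) and 896 falling probes (62.7%) had the sign of the fit on 6 of 6 chips. These probes were called on the same arrays, so that part of this agreement is built in. The share over all tested probes was not counted.

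In wild types the dose step gave 0 called probes of 13462 (0%, 524 at an unadjusted limma p under 0.05). In the test of the difference between the dose steps of knockouts and wild types (dose by genotype), 398 probes were called (2.96%), 283 with a more negative and 115 with a more positive dose difference in knockouts. That number was 72 with array position as a further factor, 222 with median scaling and 251 without the 5 dimmest arrays. Of the falling probes 19.7% were also called in that test, and of the rising probes 8.93%. The test contains the knockout dose difference by which these probes were called, so part of this overlap is built in. The median wild-type dose difference was −0.04 for the probes that fell in knockouts and 0.08 for those that rose. Of the rising probes 79.3% were above 0 in wild types, beside 49.4% of all tested probes. Of the falling probes 69.5% were below 0 in wild types, so both sets leaned the same way there. Across the 13462 probes the dose differences in knockouts and in wild types had a Pearson r of 0.408, which describes probes and not replicates, and the arrays of both genotypes shared chips.

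**Figure D1:**
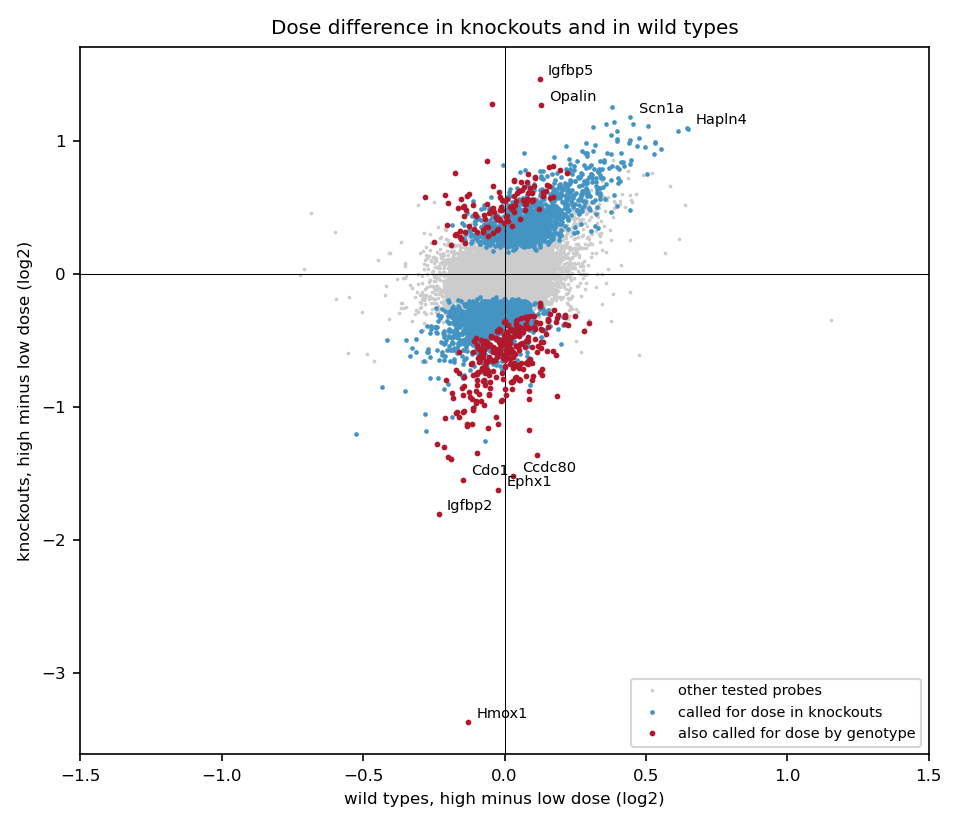
Each point is a tested probe, with the high minus low dose difference in knockouts on the vertical and in wild types on the horizontal axis, both in log2 units; blue points were called for dose in knockouts and red points also for dose by genotype. Falls such as Hmox1 (−3.37) and Ephx1 (−1.62) lie close to 0 on the wild-type axis, and rises such as Scn1a (0.44 in wild types) and Hapln4 (0.65 in wild types) lie to the right of 0.

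Array position bore on the counts. With position as a further factor 434 probes rose and 636 fell, and 32.8% of the rises and 43.5% of the falls above still passed. The median change of the called falls was −0.35 with position and −0.36 without it, that of the rises 0.38 and 0.39, and the median SE of the called probes 0.127 and 0.0981. Every called probe kept its sign, and position itself passed its F test in 0 probes. Median scaling in place of quantile normalization called 1104 rising and 739 falling probes, so that 40.1% of the calls were falls, against 53.3% with quantile normalization. Counted by 1 probe per gene, the shares of all genes against which the lists below are to be read were 10.5% rising and 10.5% falling, 3.63% rising and 4.74% falling with position, and 9.35% rising and 5.27% falling with median scaling. Without low-dose knockout replicate 30 these shares were 9.05% rising and 9.7% falling. On the knockout arrays alone they were 7.48% rising and 8.29% falling.

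**Figure D2:**
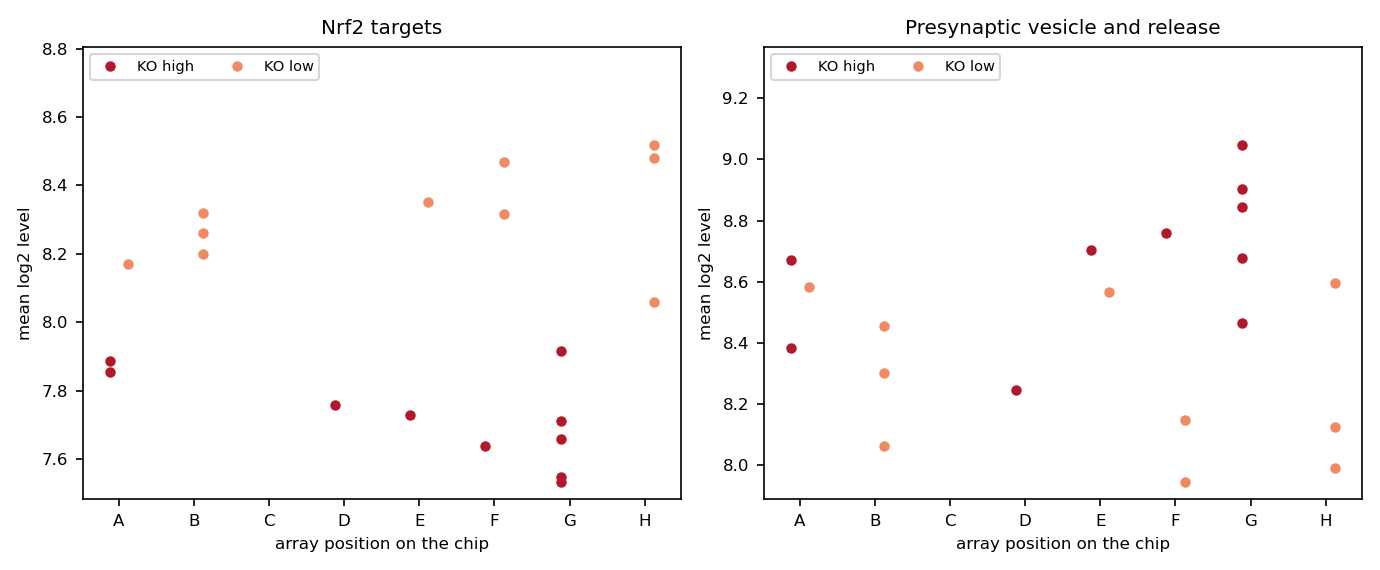
Mean log2 level of the Nrf2 targets (left) and of the presynaptic list (right) on each knockout array, by its position on the chip, with high-dose arrays in dark red and low-dose arrays in orange. The shared positions are A (high-dose replicates 1 and 5, low-dose 24), E (high-dose 9, low-dose 22) and F (high-dose 4, low-dose 27 and 30). There the high-dose arrays lie below the low-dose arrays for the Nrf2 targets. For the presynaptic list the doses overlap at A, and the high-dose arrays lie higher at E and F. These are few arrays, those at the same position lie on different chips, and no test was made on them.

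Hmox1 is a classic target of Nrf2. Its lowest, median and highest log2 levels were 4.59, 4.87 and 5.62 in high-dose knockouts, against 6.38, 7.97 and 10.38 in low-dose knockouts. The groups did not overlap, and the probe was above background on 1 of 10 high-dose and 10 of 10 low-dose arrays. The change was −3.37 ± 0.243 (10.3-fold lower, limma adjusted p = 5.88e-14, lower on 6 of 6 chips), and its size is inexact because 9 of 10 high-dose values were not above background. High-dose, low-dose and untreated wild types had medians of 4.56, 4.78 and 4.73. Low-dose knockouts thus stood above every other group, with a wide spread among themselves.

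Of 22 measured Nrf2 targets 13 fell and 0 rose, with a median change of −0.45. Of all 10091 genes 10.5% fell and 10.5% rose, with a median of 0.005. Ephx1, which opens epoxides, had levels of 6.50, 6.88 and 7.60 (lowest, median, highest) in high-dose knockouts and 8.12, 8.68 and 9.04 in low-dose knockouts. The groups again did not overlap, with a change of −1.62 ± 0.122 (limma adjusted p = 1.26e-13) and an untreated wild-type median of 6.59. Gclm, the regulatory subunit of the enzyme that limits glutathione synthesis, had levels of 6.47, 6.98 and 7.29 in high-dose and 7.60, 8.03 and 8.38 in low-dose knockouts (−1.08 ± 0.0991, limma adjusted p = 5.09e-11). G6pdx, which supplies NADPH, had 5.94, 6.70 and 6.92 in high-dose and 6.96, 7.40 and 7.91 in low-dose knockouts (−0.83 ± 0.102). Neither Gclm nor G6pdx overlapped between the doses. Sqstm1, an autophagy receptor, fell by 0.79 ± 0.0971 on the log2 scale. These 5 genes were also called for dose by genotype, as were 10 of the 22 targets in all, beside 3.07% of all genes. The median change of the list in wild types was −0.036.

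**Figure D3:**
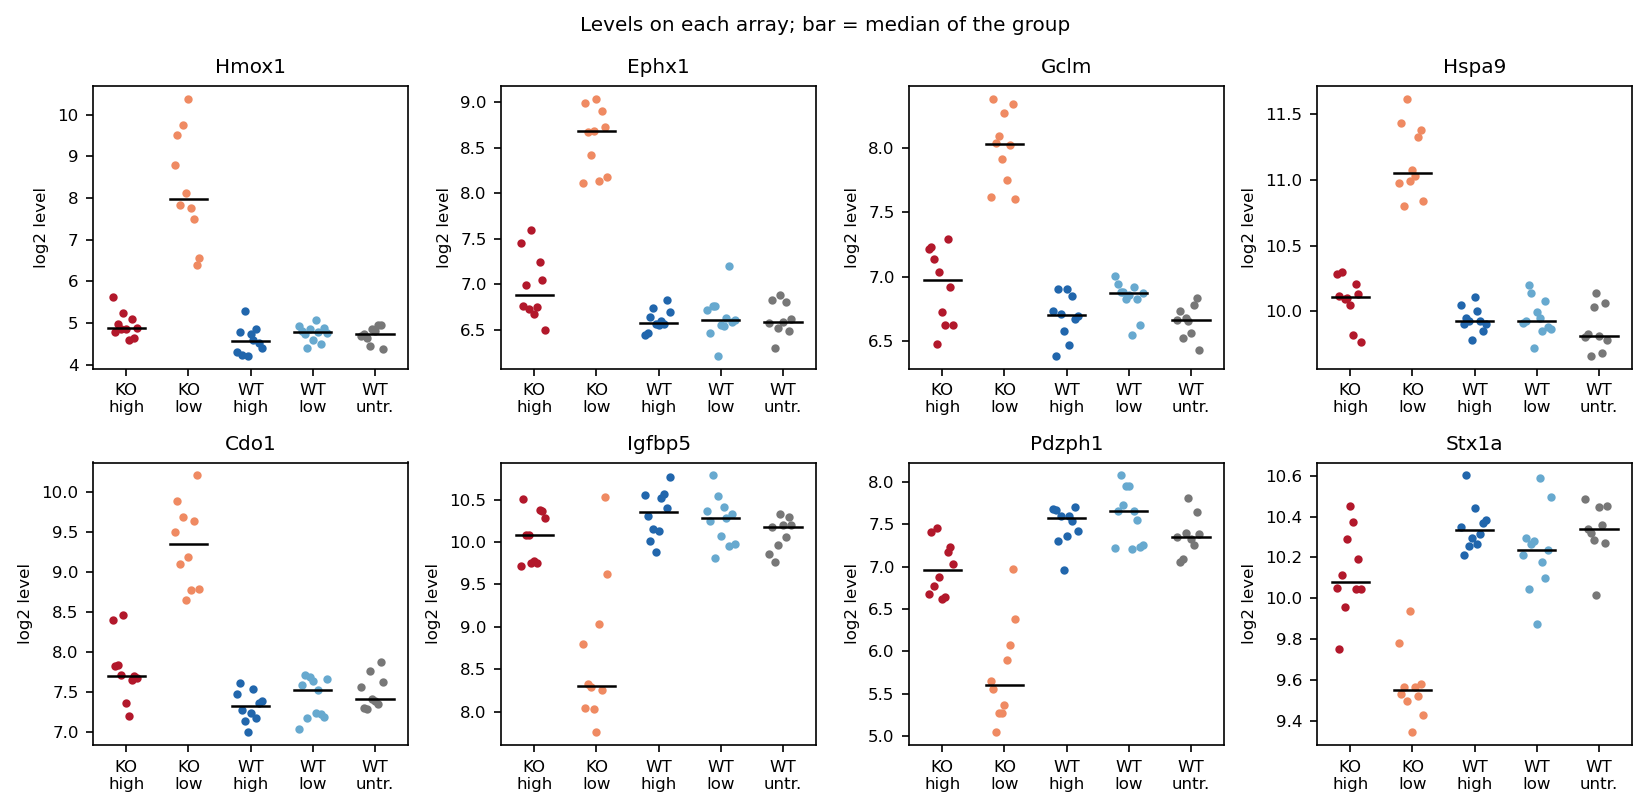
Log2 level of 8 genes on every array, in knockouts at the high and low dose and in wild types at the high dose, at the low dose and untreated, with a bar at the median of each group. Hmox1, Ephx1, Gclm, Hspa9 and Cdo1 have their highest group median in low-dose knockouts, and Igfbp5, Pdzph1 and Stx1a have their lowest there.

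Glutathione and antioxidant enzymes fell by smaller amounts. Of 23 glutathione synthesis and transferase genes, a list that shares members with the Nrf2 targets, 11 fell and 0 rose (median −0.26). Mgst1, a membrane-bound transferase, had levels of 5.67, 6.78 and 7.32 in high-dose and 6.94, 7.63 and 8.61 in low-dose knockouts. Its groups overlapped, with a change of −1.18 ± 0.185 and a second probe at −0.78. The transferase Gsto1 (−0.76 ± 0.0978) did not overlap between the doses. Gstm1 (−0.91 ± 0.157) did, and its second probe had −0.21 (limma adjusted p = 0.193), so that the probes of this gene disagree. Of 24 antioxidant enzymes 8 fell and 0 rose (median −0.18). Catalase (Cat) had levels of 6.93, 7.37 and 8.18 in high-dose knockouts against 7.74, 8.30 and 8.64 in low-dose knockouts (−0.80 ± 0.126). The mitochondrial peroxiredoxin Prdx3 fell by 0.60 ± 0.0941, the glutaredoxin Glrx by 0.57 ± 0.0824 and the peroxiredoxin Prdx4 by 0.53 ± 0.0831 on the log2 scale.

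Some amino acid stress genes fell as well. Of 22 genes of the ATF4 programme 8 fell and 0 rose (median −0.20), so most of the list was not called. The amino acid carrier Slc7a5 had levels of 7.98, 8.36 and 8.83 in high-dose and 8.79, 9.38 and 10.18 in low-dose knockouts. The groups overlapped narrowly, with a change of −0.94 ± 0.158 (limma adjusted p = 2.35e-05). The transcription factor Atf5 fell by 0.92 ± 0.199, on 5 of 6 chips, and the lipoprotein receptor Vldlr by 0.60 ± 0.119, with other probes at −0.69, −0.56 and −0.19. Of 28 aminoacyl-tRNA synthetases, which charge tRNAs with amino acids, 14 fell and 0 rose (median −0.21). Eprs, which charges glutamate and proline tRNAs, had levels of 6.06, 6.25 and 6.42 in high-dose and 6.46, 6.98 and 7.41 in low-dose knockouts, without overlap (−0.71 ± 0.0871). A second Eprs probe had −0.425 (limma adjusted p = 0.0459). Of 11 genes of serine, one-carbon and proline synthesis 8 fell and 0 rose (median −0.44), among them Phgdh, the first enzyme of serine synthesis (−0.80 ± 0.156), and the folate enzyme Mthfd1 (−0.80 ± 0.112). With array position as a factor the falls numbered 4 in the ATF4 programme, 8 among the synthetases and 2 in the serine list, and 11 among the Nrf2 targets, beside 4.74% of all genes falling in that fit.

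**Figure D4:**
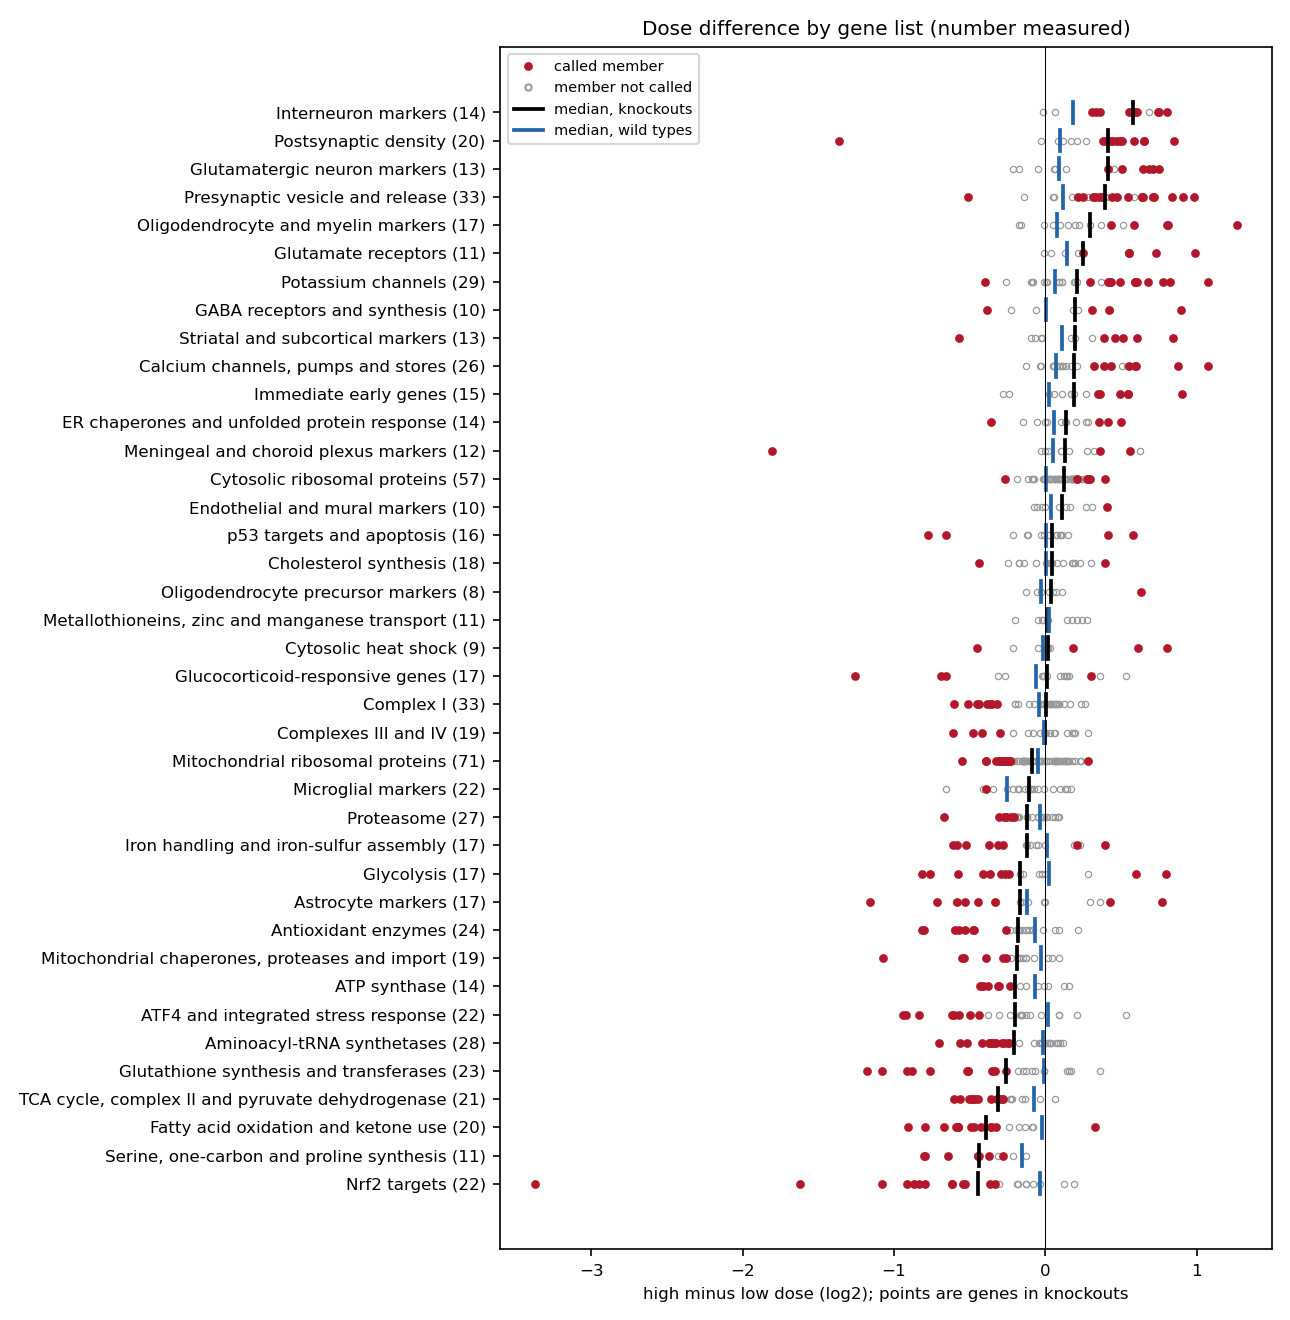
High minus low dose difference (log2) in knockouts of each measured gene of the lists with at least 8 measured genes, filled red where called and open grey where not, with the list median in knockouts (black bar) and in wild types (blue bar). Lists are ordered by their knockout median, from interneuron markers (0.58) at the top to Nrf2 targets (−0.45) at the bottom.

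Mitochondrial chaperones, proteases and import genes had 6 falls and 0 rises among 19 (median −0.19). Hspa9, the chaperone that pulls proteins into the matrix, had levels of 9.77, 10.11 and 10.30 in high-dose and 10.80, 11.05 and 11.62 in low-dose knockouts. The groups did not overlap, the change was −1.07 ± 0.0849 (limma adjusted p = 4.16e-13), and a second probe had −1.13. The folding chaperone Hspd1 (−0.54 ± 0.086), the protease component Clpx (−0.55 ± 0.104) and the cochaperone Dnaja3 (−0.39 ± 0.084) fell as well. A second probe had −0.72 for Hspd1 and −0.25 for Clpx. Among genes of iron handling and iron-sulfur assembly 6 of 17 fell and 2 rose (median −0.12). The cysteine desulfurase Nfs1 fell by 0.52 ± 0.0891 while its other probes had −0.26 and 0.05. The first heme synthesis enzyme Alas1 fell by 0.61 ± 0.114 and the scaffold Iscu by 0.37 ± 0.0751 on the log2 scale.

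Enzymes that burn fats and pyruvate fell too, and some of those that break down sugars. Of 20 genes of fatty acid oxidation and ketone use 13 fell and 1 rose (median −0.39). Acadl, a fatty acyl-CoA dehydrogenase, had levels of 6.78, 7.15 and 7.72 in high-dose and 7.45, 8.09 and 8.63 in low-dose knockouts (−0.91 ± 0.143, a second probe at −0.49). Etfdh, which passes electrons from such enzymes to ubiquinone (−0.79 ± 0.11), and Echs1, an enoyl-CoA hydratase (−0.67 ± 0.0972), did not overlap between the doses. Of 21 genes of the citric acid cycle, complex II and pyruvate dehydrogenase 14 fell and 0 rose (median −0.31), such as citrate synthase Cs (−0.60 ± 0.0983), the succinate dehydrogenase subunit Sdhb (−0.57 ± 0.0754, a further probe at −0.001) and the pyruvate dehydrogenase subunit Pdha1 (−0.50 ± 0.103). With position as a factor 8 fatty acid genes and 6 of the citric acid cycle list fell. In glycolysis 8 of 17 fell and 2 rose (median −0.17), with 3 falls and 1 rise with position and 3 falls and 2 rises with median scaling (median −0.086). Ldha, the lactate dehydrogenase subunit, fell by 0.81 ± 0.0852 without overlap, and the neuronal enolase Eno2 rose by 0.60 ± 0.131.

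Of 33 complex I subunits 8 fell and 0 rose, with a median of 0.006. Ndufs3, a core subunit, had levels of 9.15, 9.40 and 9.55 in high-dose and 9.69, 9.97 and 10.13 in low-dose knockouts, without overlap (−0.60 ± 0.0664, limma adjusted p = 5.34e-09). Ndufa9 (−0.51 ± 0.0686) did not overlap either. In complexes III and IV 4 of 19 fell and 0 rose (median 0), led by the complex III core protein Uqcrc2 (−0.61 ± 0.0866), and in ATP synthase 7 of 14 fell and 0 rose (median −0.20), with 3 falls with position as a factor and 4 with median scaling (median −0.09). Low-dose knockout replicate 30 was low for these lists, with a mean complex I level of 8.98 against 9.58 to 9.87 in high-dose knockouts. Without it 9 complex I subunits fell with a median of −0.12, and 5 subunits of complexes III and IV with a median of −0.07. Mitochondrial ribosomal proteins had 17 falls and 1 rise among 71 (median −0.087), and 5 falls with position as a factor. Proteasome subunits had 7 falls and 0 rises among 27 (median −0.12), and 1 fall with position. Under position both lists thus had shares of falls near that of all genes (4.74%), and with median scaling the ribosomal list had 3 falls and 2 rises and the proteasome list 1 fall. Cytosolic ribosomal proteins had 5 rises and 1 fall among 57 (median 0.13), and a median of 0.046 without replicate 30.

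Some of the largest falls belong to none of the lists described so far. Igfbp2, which binds insulin-like growth factors, had levels of 6.36, 6.95 and 7.31 in high-dose and 7.55, 8.82 and 9.51 in low-dose knockouts. The groups did not overlap, the change was −1.80 ± 0.164 (limma adjusted p = 4.39e-11) and a second probe had −1.39. Cdo1, which oxidizes cysteine, had 7.21, 7.71 and 8.47 in high-dose and 8.65, 9.35 and 10.21 in low-dose knockouts, also without overlap (−1.55 ± 0.146). Mat2a, which makes S-adenosylmethionine, had 8.21, 8.79 and 9.76 in high-dose and 9.66, 10.15 and 11.15 in low-dose knockouts (−1.38 ± 0.156), with other probes at −1.13, −1.02 and −0.83. The secreted protein Ccdc80 (−1.52 ± 0.118), the acetyltransferase Nat8 (−1.35 ± 0.132) and the peptidase Nln (−1.14 ± 0.107, other probes at −0.93 and −0.47) did not overlap between the doses. The endothelin receptor Ednrb (−1.30 ± 0.139) overlapped. Lcn2, an iron-siderophore binding protein, had 4.53, 4.72 and 5.88 in high-dose and 4.75, 5.61 and 9.86 in low-dose knockouts and was above background on 2 and 8 arrays, so that its change of −1.26 ± 0.284 is inexact.

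Among the rises, Igfbp5, which also binds insulin-like growth factors, had levels of 9.72, 10.08 and 10.51 in high-dose and 7.76, 8.30 and 10.54 in low-dose knockouts. The ranges overlapped, since the highest value was that of a low-dose knockout, and the change was 1.46 ± 0.182 (limma adjusted p = 7.44e-08, higher on 6 of 6 chips, dose by genotype 1.34). Pdzph1 had 6.62, 6.96 and 7.46 in high-dose and 5.04, 5.60 and 6.98 in low-dose knockouts (1.27 ± 0.153). Opalin, a myelin membrane protein, had 6.56, 7.37 and 7.91 in high-dose and 4.60, 6.20 and 6.87 in low-dose knockouts (1.27 ± 0.197). Untreated wild types had medians of 10.18 for Igfbp5, 7.36 for Pdzph1 and 7.27 for Opalin. Igfbp5, Pdzph1 and Opalin were called for dose by genotype, and the other 12 of the 15 largest rises were not.

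Those other 12 included the sodium channel subunits Scn4b (1.25 ± 0.27) and Scn1a (1.17 ± 0.353), the potassium channel Kcnh1 (1.07 ± 0.259), the calcium channel subunit Cacna2d1 (1.07 ± 0.362) and Hapln4, a link protein of perineuronal nets (1.10 ± 0.249). Scn1a had levels of 5.66, 7.84 and 8.89 in high-dose and 5.65, 6.54 and 7.96 in low-dose knockouts, ranges that overlapped over most of their width. With array position as a factor 9 of the 15 largest rises no longer passed, with a change of 0.78 for Scn1a (limma adjusted p = 0.327), 0.84 for Kcnh1 (adjusted p = 0.131), 0.73 for Cacna2d1 (adjusted p = 0.376) and 0.88 for Hapln4 (adjusted p = 0.0928), while Scn4b (1.14, adjusted p = 0.0356) passed. All 15 of the largest falls still passed. On the 20 knockout arrays alone Scn1a (adjusted p = 0.0517) and Cacna2d1 (adjusted p = 0.0541) missed the threshold.

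Among 33 genes of presynaptic vesicles and transmitter release there were 18 rises and 1 fall (median 0.39, and 0.12 in wild types). Stx1a, the syntaxin of vesicle fusion, had levels of 9.75, 10.08 and 10.45 in high-dose and 9.34, 9.55 and 9.94 in low-dose knockouts (0.55 ± 0.0801, limma adjusted p = 2.33e-06). The groups overlapped, and Stx1a was the member called for dose by genotype (adjusted p = 0.0192). The complexin Cplx1 rose by 0.44 ± 0.0767 and the active zone protein Rims3 by 0.64 ± 0.12, and Sypl fell by 0.51 ± 0.107 (a second probe at −0.28). Of 20 postsynaptic density genes 12 rose and 1 fell (median 0.41). Among the rises were the exchange factor Kalrn (0.65 ± 0.121), the adhesion protein Nlgn3 (0.85 ± 0.171) and the kinase subunit Camk2b (0.59 ± 0.124). The scaffold Dlgap2 rose by 0.65 ± 0.126, with other probes at 0.44 and 0.29. With position as a factor 5 rises and 1 fall passed in each of these lists, with medians of 0.26 and 0.34. Without low-dose knockout replicate 30 the presynaptic list had 12 rises and 1 fall.

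Ion channels and receptors rose in part. Of 29 potassium channel genes 13 rose and 1 fell (median 0.21). Kcnk2, a leak channel, had levels of 7.05, 7.26 and 7.50 in high-dose and 6.27, 6.68 and 6.89 in low-dose knockouts. It was 1 of the few rises without overlap (0.61 ± 0.0773, limma adjusted p = 1.22e-07) and was called for dose by genotype. Of 26 calcium channel, pump and store genes 8 rose and 0 fell (median 0.19), such as the channel subunit Cacnb4 (0.43 ± 0.0759, no overlap) and the calcium release channel Itpr1 (0.87 ± 0.154). Of 11 glutamate receptor genes 5 rose and 0 fell (median 0.25), including the AMPA receptor subunit Gria1 (0.99 ± 0.27, other probes at 1.00 and 0.96), and of 10 genes of GABA receptors and synthesis 3 rose and 1 fell (median 0.20). With position as a factor 4 potassium and 4 calcium genes rose, and 0 genes of either receptor list (median 0.32 for glutamate receptors).

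Markers of neuron types rose too. Of 14 interneuron markers 10 rose and 0 fell (median 0.58, and 0.18 in wild types), and 2 rose with position as a factor. The peptides Npy (0.81 ± 0.21), Cck (0.75 ± 0.169) and Vip (0.74 ± 0.198) were among them. With position Cck passed (limma adjusted p = 0.0159) and Npy (adjusted p = 0.0768) and Vip (adjusted p = 0.129) did not, and 0 of the 14 were called for dose by genotype. The mean level of the list was 7.27, 7.55 and 8.02 (lowest, median, highest array) in high-dose and 6.69, 6.99 and 7.45 in low-dose knockouts. Of 13 glutamatergic neuron markers 6 rose and 0 fell (median 0.41), and 4 with position. Cux2, a factor of upper-layer neurons, had 7.09, 7.34 and 7.89 in high-dose and 6.34, 6.75 and 7.06 in low-dose knockouts, without overlap (0.69 ± 0.101, a second probe at 0.002). The immediate early genes, which neuronal activity induces, had 6 rises and 0 falls among 15 (median 0.19), such as Nr4a2 (0.55 ± 0.107), and 3 rises without low-dose knockout replicate 30. In tissue fractions such as these, fewer nerve endings of a type and less RNA in each cannot be told apart.

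**Figure D5:**
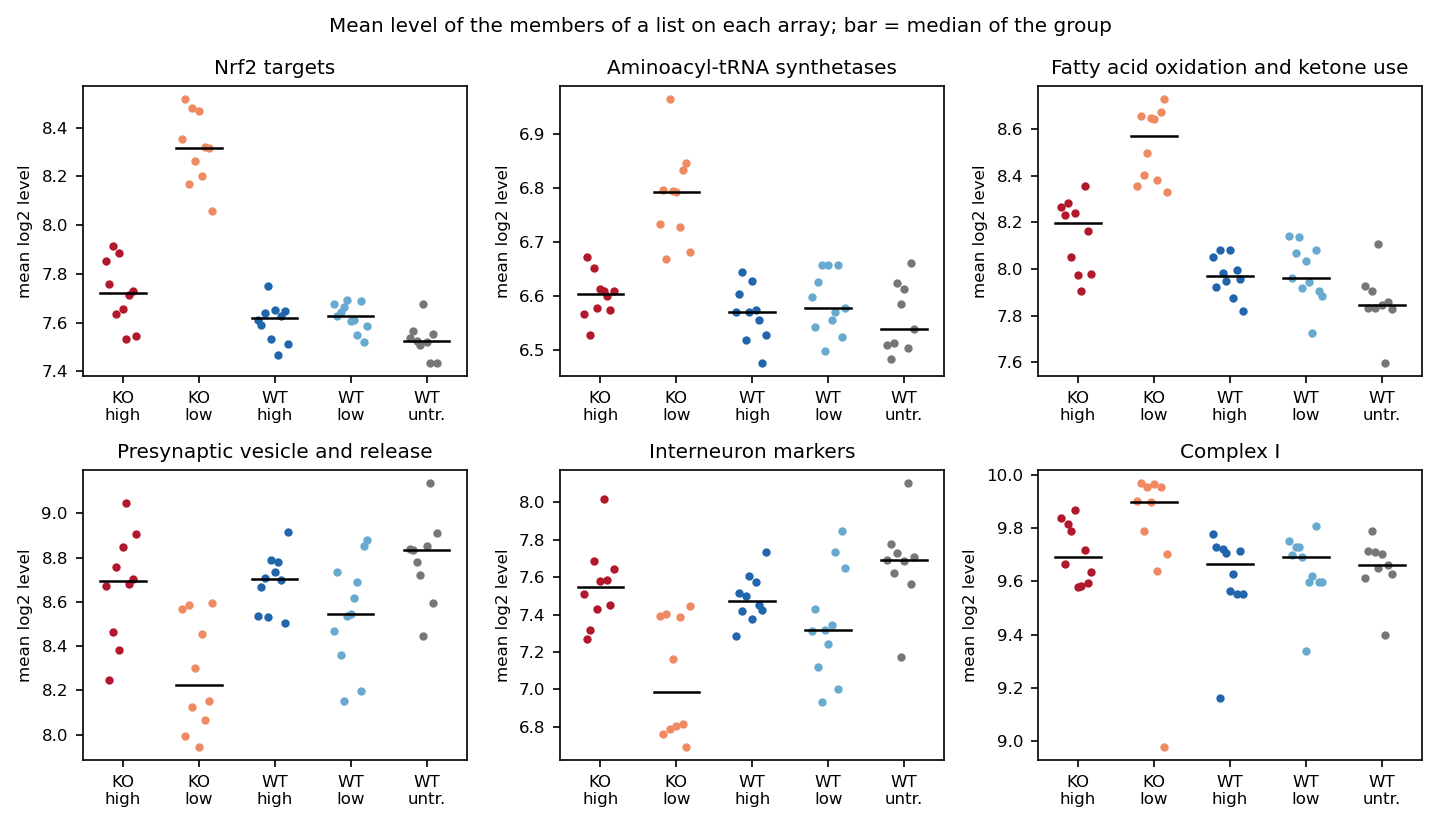
Mean log2 level of the members of 6 lists on every array, in knockouts at the high and low dose and in wild types at the high dose, at the low dose and untreated, with a bar at the median of each group. For the Nrf2 targets every high-dose knockout array (7.53 to 7.92) lies below every low-dose knockout array (8.06 to 8.52), and for complex I a single low-dose knockout array lies at 8.98.

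Genes of glia were also detected in the synaptosome RNA. Of 17 astrocyte markers 6 fell and 2 rose (median −0.17, and −0.12 in wild types). Without low-dose knockout replicate 30 there were 4 falls and 2 rises, with a median of −0.099. The water channel Aqp4 had levels of 8.26, 8.49 and 8.94 in high-dose and 8.70, 9.27 and 9.72 in low-dose knockouts (−0.72 ± 0.12), and angiotensinogen Agt had 6.92, 7.22 and 8.20 in high-dose and 7.87, 8.50 and 9.24 in low-dose knockouts (−1.16 ± 0.139). The filament protein Gfap went the other way, with 6.47, 7.34 and 8.10 in high-dose and 5.79, 6.51 and 7.51 in low-dose knockouts (0.77 ± 0.174, limma adjusted p = 0.00109). The summed astrocyte signal ranged from 26300 to 31590 in high-dose and from 23710 to 40520 in low-dose knockouts. Of 17 oligodendrocyte and myelin markers 5 rose and 0 fell (median 0.30), and 2 with position as a factor. Their summed signal ranged from 28130 to 40070 in high-dose and from 17150 to 40390 in low-dose knockouts. Of 22 microglial markers 0 rose and 1 fell (median −0.11), and of 10 endothelial and mural markers 1 rose and 0 fell (median 0.11). Of 12 meningeal and choroid plexus markers 2 rose and 1 fell, the fall being Igfbp2, and of 13 striatal and subcortical markers 5 rose and 1 fell. With position as a factor 0 rose and 1 fell in each of these 2 lists, and on the knockout arrays alone 2 striatal and 0 meningeal markers rose. The part of these cell types in the results was not tested.

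Other stress lists were mixed. Of 9 cytosolic heat shock genes 3 rose and 1 fell, and 2 rose and 0 fell with position as a factor. Cryab, a small heat shock protein, rose by 0.61 ± 0.117 without overlap, and the chaperone Hsph1 by 0.80 ± 0.109. Endoplasmic reticulum chaperones and unfolded protein response genes had 3 rises and 1 fall among 14 (median 0.13), and 0 rises and 1 fall with position. Among 18 genes of cholesterol synthesis 1 rose and 1 fell, and among 16 p53 targets and apoptosis genes 2 rose and 2 fell. Of the p53 list, Gadd45a fell by 0.77 ± 0.154 and Gadd45g rose by 0.58 ± 0.162. Metallothioneins and the transporters of zinc and manganese had 0 calls by limma among 11 (median 0.02, 4 at an unadjusted p under 0.05), and 2 red blood cell markers had 0 (1 at an unadjusted p under 0.05). The zinc and manganese transporter Slc39a8 was above background on 0 of 10 high-dose and 5 of 10 low-dose arrays (limma adjusted p = 0.0639).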

How the data were processed

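The values used were the deposited mean bead intensity of 25697 probes per array, named AVG_Signal per the file headers, from 50 arrays of 1 mouse each. Trizol RNA had been amplified once and biotin-labelled, per the labels' protocols. A second deposited table held log2 values processed by the submitters, and each of its 50 columns correlated best with its own array. The software behind both was not given in the sources used here.

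Signals were background-corrected in limma 3.58.1 (R 4.3.3) by the normal-exponential model with an offset of 16, quantile normalized and log2 transformed. The plan had called for control probes and detection p-values, and a background read from the lower peak of each array stood in for both. Probes more than 1.645 SD above that peak on at least 9 arrays were tested (52.4%). The fit had 5 groups, 7 chips and 39 residual degrees of freedom on all 50 arrays, with Benjamini-Hochberg adjustment. Lists used the brightest probe of a gene. Probe symbols were brought up to date through the RefSeq gene table, which matched 95.8% of them. Precision is limited by the number of arrays. The permutation tests ran in scipy 1.17.1.

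The members, gene lists and tests were chosen with earlier results of these data known. Genes named are Sod2, the 15 largest rises and falls, the 5 lowest p-values of any list holding 3 or more calls and 2 of any other list, and the genes with the smallest p for dose by genotype and for dose in wild types, not all of which are printed. A few of them are not reported here. On simulated arrays of this comparison, with the 50 changed genes of each size drawn from all tested probes, 18% of 1.25-fold, 46% of 1.5-fold, 74% of 2-fold and 86% of 4-fold changes were called. The fitted size was 71%, 60.5%, 49.9% and 62.6% of the simulated one, and 3 unchanged probes of 12478 were called. The simulated noise was drawn separately for each probe and array, without chip or position effects. The 3 calls thus do not cover errors from variation that probes share.

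Alternatives were a random chip effect or none, array position, 2 other background settings, median scaling, cyclic loess, 2 other filters, only the knockout arrays, array weights, leaving out the 5 dimmest arrays or each knockout array in turn, the deposited log2 values and, for the lists, the mean over the probes of a gene.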

Additional observations from a re-analysis of the deposited data

Results flagged for a closer look

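Of 156 groups checked (78 genes named in the report, in high-dose and in low-dose knockouts), 11 held an array far from the other 9, by a gap of more than 0.466 of the range of the group. Chance gives about 1 in 20 such groups. In low-dose knockouts replicate 30 was the highest array for Echs1 (gap of 0.499 of the range), Nfs1 (0.554) and Uqcrc2 (0.545), replicate 25 the highest for Glrx (0.638), replicate 27 the highest for Lcn2 (0.608), replicate 23 the lowest for Cacnb4 (0.489) and replicate 31 the lowest for Sdhb (0.537). In high-dose knockouts replicate 7 was the highest for Cck (0.559) and Vip (0.703), and replicate 2 was the highest for Mthfd1 (0.471) and the lowest for Phgdh (0.477).

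Of all 10091 genes 3.07% were called by limma for dose by genotype (adjusted p under 0.05). The 398 probes called in that test became 72 with array position as a factor. The 78 genes were mostly named for their dose change in knockouts or for this test, so a larger share among them is built in. Of these 78 genes 51 were called, that is, their dose difference in knockouts minus that in wild types passed the test. In log2 units this difference was −3.24 for Hmox1, −1.60 for Ephx1, −1.57 for Igfbp2, −1.55 for Ccdc80, −1.40 for Cdo1, −1.26 for Mgst1, −1.25 for Nat8, −1.18 for Mat2a, −1.10 for Atf5, −1.10 for Agt, −1.09 for Ednrb, −1.04 for Hspa9, −1.03 for Slc7a5 and −1.01 for Nln. It was −0.92 for Gclm, −0.91 for Acadl, −0.86 for Gstm1, −0.85 for Phgdh, −0.84 for Sqstm1 and Ldha, −0.82 for Gadd45a, −0.79 for Etfdh, −0.76 for G6pdx and Eprs, −0.71 for Gsto1 and −0.70 for Cat. Smaller values were −0.63 for Prdx3, −0.64 for Aqp4, −0.61 for Vldlr and Uqcrc2, −0.59 for Mthfd1, −0.58 for Alas1, −0.56 for Echs1, −0.54 for Nfs1, −0.52 for Cs and Ndufs3, −0.51 for Clpx, −0.50 for Glrx and Pdha1, −0.48 for Sdhb, −0.44 for Hspd1 and −0.40 for Ndufa9. A more positive dose difference in knockouts was found for Igfbp5 (1.34), Pdzph1 (1.32), Opalin (1.14), Gadd45g (0.86), Hsph1 (0.65), Cux2 (0.63), Kcnk2 (0.56), Stx1a (0.45) and Cacnb4 (0.42).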

How the results depend on the processing

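The number of rising probes (1254) was 434 with array position as a factor and 736 with only the knockout arrays. The number of falling probes (1429) was 636 with position, 739 with median scaling and 948 with only the knockout arrays. The number called for dose by genotype (398) was 72 with position, 222 with median scaling and 251 without the 5 dimmest arrays. Leaving out each knockout array in turn gave 1005 to 1393 rising and 1203 to 1532 falling probes and 263 to 488 for dose by genotype, the lowest of these without low-dose knockout replicate 27. All other alternatives run kept these counts within 1.5 times, and the dose in wild types gave 0 calls by limma in every one that included wild types. Of the named genes, 3 with adjusted p over 0.7 changed sign: Arhgap4 (0.060 with position, −0.072 to 0.003 over left-out arrays), Thbd (0.105 with position, −0.059 to 0.002) and Fam163b (−0.024 to 0.031 over left-out arrays). The causes were not tested. No paired analysis was possible because the replicate numbers of the groups are not shared. Dim genes such as Hmox1 and Lcn2 lie near background in 1 or more groups, which limits their fold sizes, and dose and position are only partly separable on these chips.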

Other observations

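The following gene groups were put together after their values were seen and carry no test. Of all genes 10.5% rose and 10.5% fell, and these groups were not counted with array position as a factor. Of 14 genes of branched-chain amino acid breakdown 9 fell and 0 rose (median −0.30, beside 0.005 for all genes), with Dbt, a subunit of the branched-chain dehydrogenase complex, at −0.64 ± 0.115 and the acyl-CoA dehydrogenase Acadsb at −0.51 ± 0.109. Of 13 genes of methionine and cysteine metabolism 4 fell and 0 rose (median −0.12), which were Cdo1, Mat2a, the cystathionine synthase Cbs (−0.72 ± 0.0973) and the cystathionine lyase Cth (−0.57 ± 0.0961).

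Of 12 genes of the insulin-like growth factor system 3 rose and 1 fell. Beside Igfbp5 the rises were the receptor Igf2r (0.46 ± 0.137) and the binding protein Igfbp6 (0.35 ± 0.12), and the fall was Igfbp2. Igfbp6 was above background on 9 high-dose and 2 low-dose knockout arrays, so the size of its change is inexact. Of 19 semaphorins, plexins and neuropilins, which guide axons, 7 rose and 1 fell (median 0.25), with Sema7a at 0.98 ± 0.209 and Sema6d at −0.67 ± 0.114. Of 5 voltage-gated sodium channel genes 3 rose and 0 fell, with the subunit Scn2b at 0.96 ± 0.164 beside Scn4b and Scn1a.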
